A study of Mus musculus with 15 samples.

Results

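Keratins are the intermediate filament proteins of epithelial cells, and this account follows 10 of their genes in mouse intestinal organoids: Krt7, Krt8, Krt14, Krt15, Krt17, Krt18, Krt19, Krt20, Krt23 and Krt80. They were chosen by name as keratins of simple and of stratified epithelium, and all 10 were found among the 43629 genes of the count table, which holds 44 other keratin genes. In Apc organoids Krt7, Krt18, Krt23 and Krt80 rose relative to WT, Krt20 fell to a trace and Krt15 fell from an already low level. Krt8 and Krt19 were lower to a smaller degree, at 0.804 and 0.570 times WT on the count scale, and did not reach the fold required for a call. The small decrease of Krt8 depended on how the data were scaled and fitted. In P-Rspo3 organoids none of these genes passed the test against WT.

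Every library was RNA of small intestinal organoids, which are crypt-derived epithelial cultures grown in Matrigel, from mice of mixed C57B6/129 strain. The WT group held 5 libraries in ENR media (EGF, Noggin and R-spondin), of which 4 (replicates 1, 2, 5 and 6) were APC flox/flox and not recombined and 1 (NAIVE) was dox naive, from the doxycycline-inducible Cas9 line that had not been induced. The Apc group held 4 libraries (replicates 1, 2, 5 and 6) of genotype Apc delta/delta in EN media, which lack R-spondin. The P-Rspo3 group held 4 libraries (EN15d, EN4d, EN_M and EN_F), also in EN media, with a Ptprk-Rspo3 rearrangement induced by Cas9 and grown as bulk, polyclonal cultures. Genotype and medium change together between WT and either mutant group and cannot be told apart there, whereas Apc and P-Rspo3 shared their medium. No label says that replicates came from separate animals, so p-values measure the spread between these cultures, which may be partly technical. In bulk RNA, fewer cells of a type and less RNA per cell cannot be told apart.

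Keratin filaments are built from pairs of an acidic type I and a basic type II protein, so that neither type forms a filament alone. Simple, single-layered epithelia such as the gut lining use the type II keratin Krt8 with the type I keratins Krt18 and Krt19, and Krt20 is added as enterocytes and goblet cells differentiate. Krt7 is a type II keratin best known from ducts and other simple epithelia, and is usually scarce in the intestine. Stratified epithelia such as epidermis and oesophagus use other pairs: Krt14 and Krt15 belong to their basal layer, Krt17 to hair follicles and wounded skin, and Krt80 is a type II keratin found widely in epithelia. Of the 10 genes, 7 encode type I and 3 type II keratins.

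The libraries held 28902729 to 35528495 counted reads. Rspo3 had at most 1 count in any WT library, 7 to 57 in Apc and 539 to 1079 in P-Rspo3, and the count of the whole Apc gene, 9265 to 10953 in Apc and 4046 to 6810 in WT, does not isolate the deleted part and so checks nothing. Markers of intestinal epithelium summed to 3029 to 3572 CPM (counts scaled to library size) in WT and 3051 to 3178 in P-Rspo3. In Apc the sum was lower, at 2567 to 2824. Over all 13 libraries the markers of mesenchyme stayed at or below 4.74 and those of immune cells at or below 0.881.

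On the genome (GRCm38), the type I genes other than Krt18 lie on chromosome 11 and the type II genes and Krt18 on chromosome 15. Several of these genes are direct neighbours. Krt20 (chr11:99428403-99438150) and Krt23 (chr11:99477974-99493137) are 39.8 kb apart on the minus strand, Krt8 (chr15:101996698-102004482, minus strand) and Krt18 (chr15:102028180-102032027, plus strand) are 23.7 kb apart, and Krt80 (chr15:101347444-101370162, minus strand) and Krt7 (chr15:101411043-101430313, plus strand) are 40.9 kb apart. Krt15 (chr11:100131758-100135928) and Krt19 (chr11:100140810-100148665) are 4.88 kb apart on the minus strand. No protein-coding gene lies between the members of any of these 4 pairs. Krt14 (chr11:100203162-100207548) and Krt17 (chr11:100256217-100261029) lie further along the same strand. In the GENCODE annotation the antisense gene Gm671 overlaps the start of Krt7, Gm36026 that of Krt8, and Gm35853 lies across Krt80. None of these is listed in the count table, and the strand setting of the counting is not given in the sources used here, so their reads cannot be told apart from those of the keratins.

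Start regions are shown for the neighbours that differed in their response, Krt20 beside Krt23 and Krt8 beside Krt18, and for Krt7. Each sequence is the 60 bases upstream of the outermost start of the RefSeq transcript (GRCm38.p6) and its GENCODE counterpart, written 5′ to 3′ on the strand of the gene, with capitals marking ATAAA where it occurs. The windows are chr11:99438154-99438213 for Krt20, chr11:99493138-99493197 for Krt23, chr15:101412342-101412401 for Krt7, chr15:102004483-102004542 for Krt8 and chr15:102028120-102028179 for Krt18, and that of Krt7 overlaps an exon of a non-coding Krt7 transcript.
Krt20: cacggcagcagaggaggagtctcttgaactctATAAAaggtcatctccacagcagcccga
Krt23: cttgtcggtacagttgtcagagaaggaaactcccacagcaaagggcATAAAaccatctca
Krt7: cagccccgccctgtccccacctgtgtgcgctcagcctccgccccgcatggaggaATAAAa
Krt8: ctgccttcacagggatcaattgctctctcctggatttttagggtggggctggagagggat
Krt18: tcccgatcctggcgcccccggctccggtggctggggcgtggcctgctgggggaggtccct

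The windows of the 2 keratins that moved in opposite directions, Krt20 and Krt23, both carry ATAAA. It begins 28 bases before the RefSeq start in Krt20 and 31 in Krt23, the usual distance of a TATA-type element from that start. The Krt23 window shown ends at a GENCODE start further upstream, to which ATAAA lies nearer. Krt7 has ATAAA 7 bases before its start and 4 matches to GGGCGG (or CCGCCC on the other strand) within the 250 bases before to 50 bases after it. The window of Krt18 is rich in G and C, with 78.3% against 53.3% in Krt8. These motifs were chosen after the sequences were seen and are common. ATAAA or TTTAT occurs in 40.0%, TATAA or TTATA in 24.9% and GGGCGG or CCGCCC in 35.7% of the 32851 RefSeq promoter windows of the same 300 bases. The table held promoters of 6 of the 10 members, and Krt15, Krt17, Krt19 and Krt80 were not among them.

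Krt8, the main type II partner of simple epithelium, was high in every library. Its FPKM (fragments scaled to transcript length and library size) was 584, 508, 429, 469.7 and 507 in WT replicates 1, 2, 5, 6 and NAIVE, and 543, 397, 497 and 516 in Apc replicates 1, 2, 5 and 6. In P-Rspo3 it was 563 in EN15d, 564 in EN4d, 589 in EN_M and 463 in EN_F. The 3 groups overlapped, with means of 499.5 ± 57.1 (SD, n = 5), 488 ± 63.6 (SD, n = 4) and 545 ± 56.0 (SD, n = 4). Krt8 ranked 169th of 43437 genes by mean FPKM in WT and 145th in Apc.

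Krt18, the usual type I partner of Krt8, did not follow it. WT libraries had FPKM of 215.5, 219.8, 161, 217.5 and 183 in the same order, and the 4 Apc libraries had 614, 443, 546.5 and 465. P-Rspo3 libraries had 234.5, 211, 234.5 and 186. Each Apc library exceeded the highest WT and P-Rspo3 library, and the Apc mean of 517 ± 78.4 (SD, n = 4) was 2.59 times the WT mean of 199 ± 26.1 (SD, n = 5). By rank Krt18 moved from 400th in WT to 137th in Apc.

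Krt19, the second type I keratin of the gut lining, had the highest mean of the members in WT, with FPKM of 813, 708, 610.4, 575.5 and 675. The Apc libraries had 489.7, 340.0, 492 and 557, each below the lowest WT library, and the P-Rspo3 libraries 752, 774, 812 and 648, which overlapped WT. The Apc mean of 469.8 ± 92.0 (SD, n = 4) lay below the WT mean of 676 ± 92.5 (SD, n = 5).

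Krt7 was the type II gene that changed most among the abundant members. WT libraries had FPKM of 51.7, 57.5, 42.0, 52.0 and 40.9, P-Rspo3 libraries 70.3, 56.4, 48.5 and 43.5, and Apc libraries 241, 186, 246 and 231. The lowest Apc library, at 186, lay well above the highest of the other groups, at 70.3, and the Apc mean was 4.63 times that of WT.

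Krt20, the keratin of differentiated villus cells, varied widely within WT and was nearly lost in Apc. It had FPKM of 32.0, 71.4, 96.8, 22.2 and 49.4 in WT, and 56.9, 31.3, 22.2 and 66.3 in P-Rspo3. The Apc libraries had 0.964, 2.03, 0.470 and 1.97, from 46 to 202 counts, against 2235 to 8046 counts in WT. The SD was 55.6% of the mean in WT and 47.1% in P-Rspo3, where Krt7, Krt8, Krt18, Krt19 and Krt23 had at most 21.4%. WT and P-Rspo3 overlapped, and Apc lay far below both.

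Krt23, the type I neighbour of Krt20, moved the other way. It had FPKM of 15.6, 17.5, 12.7, 20.2 and 13.3 in WT, 49.7, 58.6, 78.2 and 84.96 in Apc, and 16.6, 20.2, 14.5 and 21.5 in P-Rspo3. Again the Apc libraries lay above all others, and the other groups overlapped.

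Krt80 was close to the limit of detection outside Apc. WT libraries held 6 to 26 counts, P-Rspo3 libraries 6 to 13, and Apc libraries 424, 227, 290 and 418. In FPKM the Apc libraries had 3.81, 2.27, 2.72 and 3.71, and no WT library exceeded 0.244.

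Among the keratins of stratified epithelium, Krt15 was low throughout and Krt14 and Krt17 barely appeared. Krt15 had FPKM of 1.18, 0.762, 0.464, 0.929 and 1.03 in WT, 0.252, 0.280, 0.709 and 0.358 in Apc, and 0.640, 0.848, 0.777 and 0.717 in P-Rspo3. Apc replicate 5 lay within the WT range, so these groups overlapped. Krt14 had 1 count in each WT library, 1 or 2 in each P-Rspo3 library, and 4, 1, 4 and 10 in the Apc libraries. Krt17 had 0 counts in all WT and P-Rspo3 libraries, which allows up to 3 counts in each, and 0, 0, 4 and 3 in Apc. Both genes were left out of the tests by the filter on low values, and no fold is given for them, although without that filter Krt14 was called higher in Apc than in WT (adjusted p = 0.0478, edgeR).

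**Figure D1:**
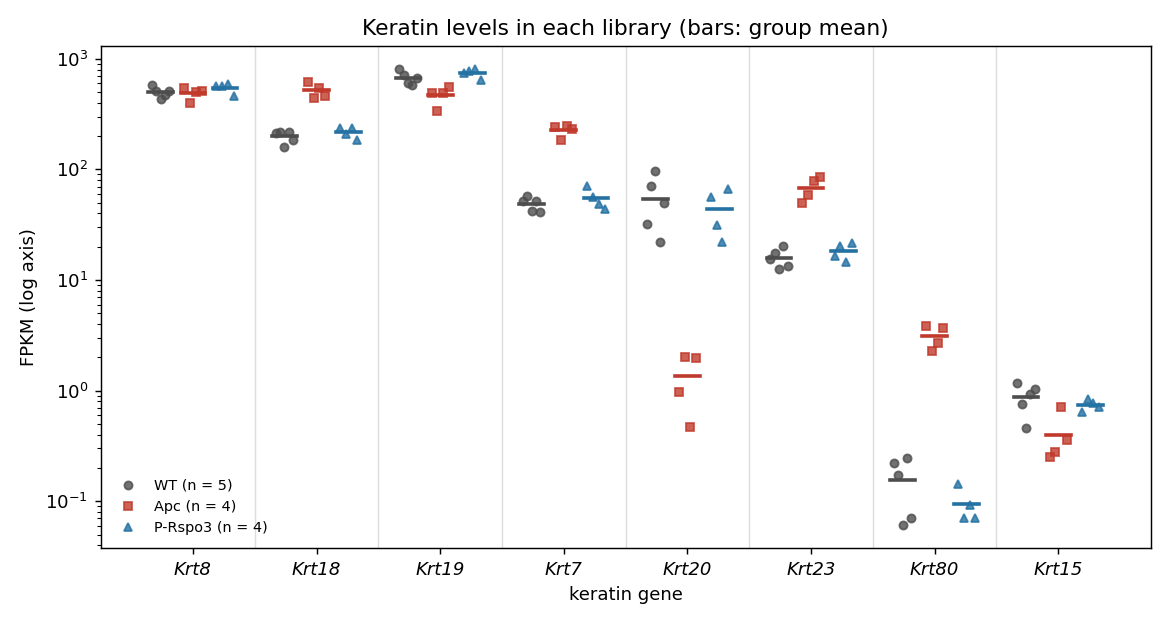
FPKM of 8 keratin genes (log axis) in each library, with symbols for the 5 WT, 4 Apc and 4 P-Rspo3 libraries and a bar at each group mean. Krt18, Krt7, Krt23 and Krt80 sit higher and Krt20 and Krt19 lower in every Apc library than in any WT or P-Rspo3 library, and Krt14 and Krt17 are not drawn because most of their values are at or near 0.

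The order of levels within a group differed accordingly. In WT the FPKM means ran Krt19, Krt8, Krt18, Krt20, Krt7, Krt23, Krt15, Krt80, Krt14 and Krt17, and the ranges of Krt19 and Krt8, and of Krt20 and Krt7, overlapped, so that the order within these pairs is not settled. In Apc the 3 highest means, 517 for Krt18, 488 for Krt8 and 469.8 for Krt19, overlapped in range. Krt7 followed at 226, then Krt23 at 67.8, Krt80 at 3.13 and Krt20 at 1.36. In P-Rspo3 the order was that of WT except that Krt7, at 54.7, stood above Krt20, at 44.2, again with overlapping ranges.

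As a share of the summed FPKM of the 10 genes, the Apc libraries held a different mixture at a similar total. The sum was 1495 ± 154 (SD, n = 5) in WT, 1774 ± 233 (SD, n = 4) in Apc and 1626 ± 134 (SD, n = 4) in P-Rspo3, with overlapping ranges, and the members took 0.346%, 0.423% and 0.377% of all counts. Krt19 made up 45.1% of the sum in WT and 26.3% in Apc, whereas Krt18 went from 13.4% to 29.2% and Krt7 from 3.27% to 12.8%. The share of Krt8 was 33.4% in WT and 27.5% in Apc. In P-Rspo3 the shares of Krt19, Krt8, Krt18 and Krt7 were 45.9%, 33.5%, 13.3% and 3.35%.

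Ratios within a library do not depend on its scaling, and they separated Apc from the other groups. The ratio of Krt8 to Krt18 FPKM was 2.71, 2.31, 2.67, 2.16 and 2.76 in WT, 0.884, 0.896, 0.910 and 1.11 in Apc, and 2.402, 2.68, 2.51 and 2.49 in P-Rspo3. Krt8 transcripts thus outnumbered those of Krt18 in every WT and P-Rspo3 library, and the levels were near equal in Apc. The ratio of Krt19 to Krt18 had a mean of 3.42 ± 0.492 (SD, n = 5) in WT and 0.916 ± 0.196 (SD, n = 4) in Apc, and that of Krt7 to Krt8 0.0982 ± 0.0140 (SD, n = 5) and 0.464 ± 0.0229 (SD, n = 4). The summed type I to type II ratio changed less, from 1.73 ± 0.105 (SD, n = 5) in WT to 1.47 ± 0.0240 (SD, n = 4) in Apc, with ranges of 1.60 to 1.87 and 1.44 to 1.499 that did not overlap. In P-Rspo3 it was 1.72 ± 0.0708 (SD, n = 4).

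**Figure D2:**
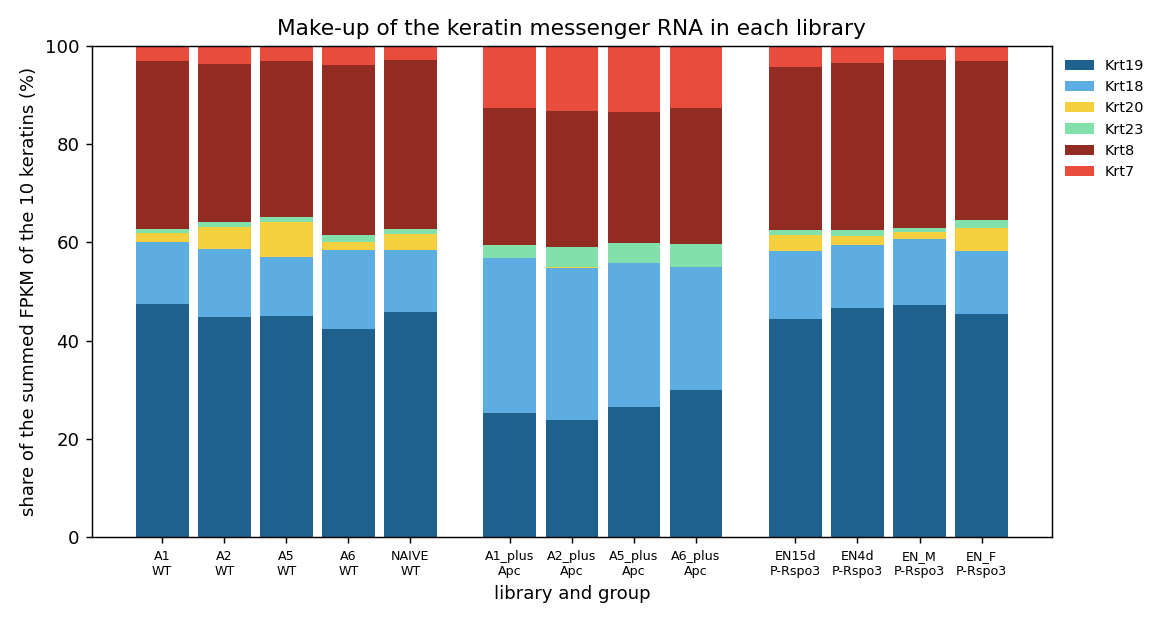
Share of each of the 6 most abundant keratins in the summed FPKM of the 10 genes (percent, stacked bars), for each of the 13 libraries, with blue, yellow and green for type I and red for type II. The 4 Apc bars show Krt18 at 25.0% to 31.6% and Krt7 at 12.4% to 13.2%, against 11.9% to 16.0% and 2.78% to 3.83% in WT.

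The comparison of Apc with WT asks how loss of Apc, and with it constant Wnt signalling, alters the organoids. Counts were tested with edgeR's quasi-likelihood test, and genes counted as called where the log2 fold change exceeded 1 in size and the p adjusted by Benjamini-Hochberg was below 0.05. Of the 10 members 8 were tested, 4 were called higher and 2 lower. Over all 16749 genes tested, 12.2% were called higher and 14.1% lower, so calls were common in this comparison. The members tested had a median log2 fold change of 0.40, and all genes tested one of 0.00058. In FPKM, 6 of the 8 members tested had Apc and WT ranges that did not overlap, beside 54.5% of all genes tested. Krt14 and Krt17, which were not tested, had overlapping ranges. Krt80 passed the filter on low values through its Apc libraries, so its direction was not independent of that filter.

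Among the 4 that rose, Krt7 had a log2 fold change of 1.91 ± 0.11 (SE), a 3.77-fold increase (edgeR quasi-likelihood test, adjusted p = 1.9e-07). Krt18 rose by 1.11 ± 0.12 (adjusted p = 1.29e-05, edgeR) and Krt23 by 1.84 ± 0.17 (adjusted p = 4.55e-06, edgeR) on the same scale. Krt80 had the highest value, 4.01 ± 0.33 (adjusted p = 2.11e-06, edgeR), or 16.1-fold, on a WT level of at most 26 counts. Krt7 is type II and Krt18 and Krt23 are type I, so the increases were not confined to either type even without Krt80.

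Krt20 fell by 5.60 ± 0.59 on the log2 scale, a 48.4-fold decrease (edgeR quasi-likelihood test, adjusted p = 1.35e-05), and was the member with the widest difference. Krt15 had a log2 fold change of -1.35 ± 0.31 (adjusted p = 0.00322, edgeR), and with limma on log2(FPKM + 1) this gene was no longer called, at -0.42. Krt8 and Krt19 passed the adjusted p but not the fold, at -0.31 ± 0.10 (adjusted p = 0.0233, edgeR) and -0.81 ± 0.14 (adjusted p = 4.75e-04, edgeR).

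Scaling matters for the small differences. With limma on FPKM the median of all genes in Apc against WT lay at 0.17 with a pseudocount of 1 and 0.28 with one of 0.1, and Krt8 was then at -0.03. The split of all calls was 2048 higher and 2364 lower on counts, and 2570 higher and 1717 lower with limma on log2(FPKM + 0.1). Krt8 lay slightly below the median of all genes under either scaling, but its distance from that median was not tested. Its adjusted p was 0.811 with limma on log2(FPKM + 1). With edgeR it was 0.0779 without Apc replicate 2. It was 0.0585 by edgeR with the replicate number as a block and WT of the APC flox/flox lines alone.

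**Figure D3:**
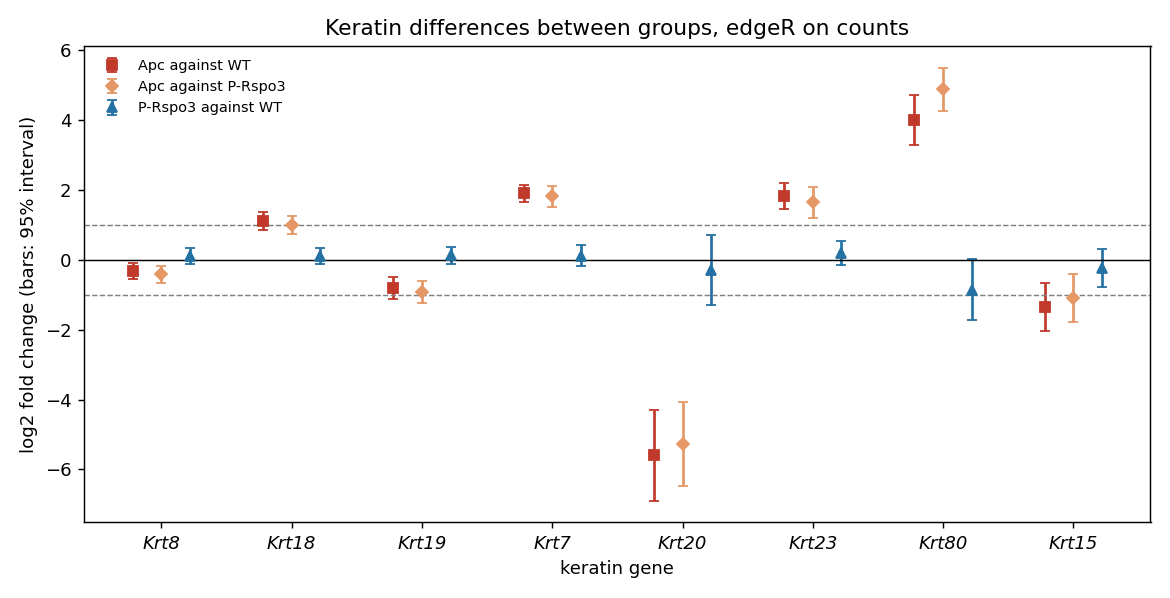
Log2 fold changes of 8 keratin genes from edgeR on counts, with 95% intervals as bars, for Apc against WT, Apc against P-Rspo3 and P-Rspo3 against WT; dashed lines mark the fold threshold of 1. The intervals of P-Rspo3 against WT all include 0, while those of Krt18, Krt7, Krt23 and Krt80 lie above 0 and those of Krt20, Krt15, Krt19 and Krt8 below 0 in both Apc comparisons.

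Differentiation markers moved with Krt20. The 7 enterocyte markers (Alpi, Apoa1, Fabp1, Fabp2, Sis, Mttp and Anpep) were all called lower in Apc, with a median log2 fold change of -8.81, and their sum was 128 to 181 CPM in Apc against 8495 to 15600 in WT. The 3 goblet markers (Muc2, Tff3 and Spdef) were also all called lower, with sums of 26.7 to 80.5 CPM in Apc and 399.8 to 471 in WT. The part of these cell types in the change of Krt20 was not tested. Proliferation markers (Mki67, Top2a and Ccnb1) summed to 1567 to 1807 CPM in Apc and 939 to 1291 in WT, and none of the 3 was called. Of the 4 crypt base markers Lgr5, Ascl2 and Smoc2 were called higher in Apc and Olfm4 lower. Their sum was lower in Apc, at 848.5 to 1282 CPM against 1316 to 2924 in WT. The 4 tuft markers summed to 9.48 to 18.5 CPM in Apc and 24.9 to 48.2 in WT. The 3 endothelial markers summed to 5.59 to 9.18 CPM in Apc and 0.763 to 1.35 in WT. Cdh5 was called higher, with 217 to 372 counts in Apc and 0 in WT, Pecam1 lower, with 3 to 10 and 21 to 36, and Kdr had 0 counts in each.

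Within a group, Krt20 and the enterocyte markers did not keep a fixed ratio. WT replicate 5 had the highest Krt20 (96.8 FPKM) and the highest enterocyte sum (15600 CPM), and WT replicate 6 the lowest of both, 22.2 FPKM and 8495 CPM. The remaining WT libraries had sums of 10250 to 10430 CPM, yet Krt20 of 32.0 to 71.4 FPKM. In P-Rspo3, EN15d had the lowest sum, 6456 CPM, with 56.9 FPKM of Krt20, and EN_F had the highest of both, 13190 CPM and 66.3 FPKM. In Apc, replicate 5 had the highest sum, 181 CPM, and the lowest Krt20, 0.470 FPKM.

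**Figure D4:**
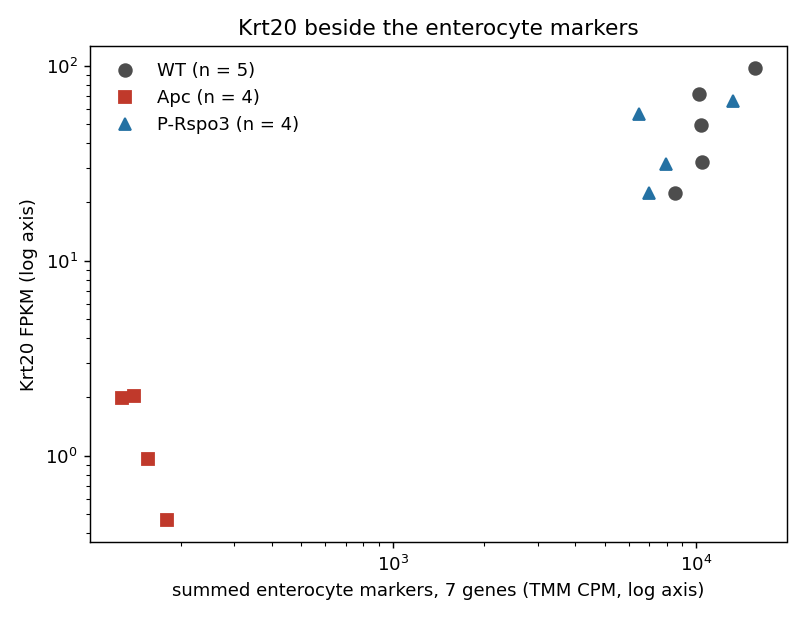
Krt20 FPKM (vertical, log axis) against the summed CPM of 7 enterocyte markers (horizontal, log axis), 1 point per library for 5 WT, 4 Apc and 4 P-Rspo3 libraries. The 4 Apc libraries form a group at 128 to 181 CPM and 0.470 to 2.03 FPKM, apart from the WT and P-Rspo3 libraries. Of these, 3 P-Rspo3 libraries lie at 6456 to 7939 CPM, below the lowest WT library at 8495, and their Krt20 levels overlap those of WT.

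P-Rspo3 was compared with WT to see how R-spondin made by the organoids themselves differs from R-spondin in the medium. No keratin member was called with edgeR's quasi-likelihood test, none of the 8 tested had an unadjusted p under 0.05, and DESeq2 also called 0. Over all 15992 genes, edgeR called 0.00625% higher and 0% lower, but this background depends on the fit. It was 55 higher and 173 lower with DESeq2, 11 and 63 with all 3 groups in 1 fit, and 166 and 100 without the WT library NAIVE, and no keratin member was called in any of these. The median log2 fold change of the members was 0.11 and that of all genes 0.0041.

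The intervals say how large a difference these data still allow. Krt8, at 0.11, had a 95% interval of -0.10 to 0.33, Krt18, at 0.11, one of -0.11 to 0.33 and Krt19, at 0.13, one of -0.11 to 0.37. Krt7 lay at 0.11 (-0.19 to 0.42) and Krt23 at 0.20 (-0.16 to 0.55). For these genes a log2 change of 1 in either direction lies outside the interval. For Krt20, at -0.30 (-1.30 to 0.70), a decrease of 1 does not, given the spread of that gene within both groups. Krt80 had -0.85 (-1.72 to 0.01), with an adjusted p of 0.377 by edgeR on 6 to 26 counts per library, and Krt15 had -0.24 (-0.78 to 0.30).

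Apc and P-Rspo3 were both grown without R-spondin, and the comparison between them leaves the medium out. P-Rspo3 cultures came from the doxycycline-inducible Cas9 line, and no label places the Apc cultures in that line. Genotype and mouse line therefore cannot be told apart in this comparison. The comparison of Apc with P-Rspo3 shares the Apc libraries with the comparison to WT and is therefore not independent of it. Of the 8 members tested with edgeR's quasi-likelihood test, 4 were called higher and 2 lower, where 13.4% of 16456 genes were higher and 13.3% lower. The genes were again Krt7 at 1.82 ± 0.14 (SE), Krt18 at 1.01 ± 0.11, Krt23 at 1.65 ± 0.20 and Krt80 at 4.88 ± 0.28, all higher in Apc, and Krt20 at -5.28 ± 0.53 and Krt15 at -1.09 ± 0.30, both lower. Here too Krt80 passed the filter on low values through its Apc libraries. Krt18 and Krt15 lie close to the fold threshold, and leaving out 1 library lost the call of Krt18 in 4 of 8 fits (Apc replicates 1 and 5, EN4d and EN_F) and of Krt15 in 2 (Apc replicates 1 and 2). Krt18 was then at 0.92 to 0.99 and Krt15 at -0.94 and -0.99. Without Apc replicate 6, Krt19 passed the fold at -1.002, against -0.93 with all libraries.

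Other keratin genes were mostly silent. Of the 44, 27 had at most 3 counts in every WT and Apc library, and 9 could be tested in Apc against WT, of which Krt4, Krt39, Krt5, Krt79 and Krt88 were called higher and none lower. These 5 passed the filter through their Apc libraries, with WT means of at most 0.0632 FPKM, so their direction was fixed by the filter, while Krt12, at 0.0293 FPKM in Apc and 0.408 in WT, was not tested. Krt4, a type II keratin of the upper layers of the oesophagus, stood apart from the rest. It had 1, 4, 2, 9 and 7 counts in WT and 9430, 3964, 5363 and 4643 in Apc, or 83.4, 38.8, 49.5 and 40.0 FPKM, with a log2 fold change of 9.88 ± 0.38 (edgeR quasi-likelihood test, adjusted p = 1.92e-08). In P-Rspo3 it had 5, 5, 0 and 0 counts. Its level in Apc, 52.9 ± 20.9 FPKM (SD, n = 4), was near that of Krt23 and above that of Krt80, whereas Krt13, its usual type I partner, had at most 3 counts in any Apc library.

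The other 4 keratins called were low. Krt39 went from 1 to 13 counts in WT to 43 to 88 in Apc (log2 fold change 3.23 ± 0.51, adjusted p = 2.66e-04, edgeR), and Krt5, the basal-layer partner of Krt14, from 0 to 8 counts to 14 to 30. Krt79 had 0 to 2 counts in WT and 14 to 28 in Apc, and Krt88 0 to 3 and 7 to 14. In Apc against P-Rspo3 10 of the list were tested, with 5 called higher (Krt4, Krt79, Krt5, Krt39 and Krt87) and 1 lower, Krt12. Over all genes 13.4% were called higher and 13.3% lower. Krt12 had 0 to 2 counts in Apc and 6 to 32 in P-Rspo3. The 5 higher genes passed the filter through their Apc libraries and Krt12 through its P-Rspo3 libraries, so these directions were not independent of the filter. In P-Rspo3 against WT 5 of the 44 were tested and 0 called by edgeR or DESeq2, with 1 at an unadjusted p under 0.05 (edgeR).

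A list of 16 genes of stratified epithelium also holds keratins, among them Krt4 and Krt5. Of these genes 9 were tested in Apc against WT, with 5 called higher (Krt4, Krt5, Ly6d, Anxa8 and Ivl) and 1 lower (Sfn), beside 12.2% and 14.1% of all genes. Krt4, Krt5, Anxa8 and Ivl passed the filter through their Apc libraries. Ly6d, a surface protein of basal and oesophageal keratinocytes, went from 1 to 5 counts in WT to 620 to 1763 in Apc (log2 fold change 7.66 ± 0.38, adjusted p = 7.02e-08, edgeR). Anxa8 had 0 to 4 counts in WT and 122 to 442 in Apc, and Ivl, which encodes a precursor of the cornified envelope, 0 to 1 and 15 to 116. Sfn, or 14-3-3 sigma, fell by 1.75 ± 0.20 on the log2 scale (adjusted p = 2.91e-05, edgeR).

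The defining regulator of squamous epithelium was nearly absent. Trp63 had 5 to 13 counts in Apc libraries and at most 4 in WT, and the sum of the 4 squamous markers (Trp63, Krt5, Ivl and Dsg3) was 1.28 to 4.47 CPM in Apc and 0.112 to 0.423 in WT. Of those markers Ivl alone had at most 3 counts in every WT library. The part of such cells in the rise of Krt80 or Krt4 was not tested.

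Of 14 desmosome and keratin-binding genes tested in Apc against WT, which tie keratins to cell junctions, 1 was called higher and 1 lower. Over all genes 12.2% were called higher and 14.1% lower. The median log2 fold change of the list was 0.03. Ppl, the cytolinker periplakin, rose from 2.72 ± 0.471 (SD, n = 5) to 13.7 ± 2.10 FPKM (SD, n = 4), a log2 fold change of 2.06 ± 0.13 (adjusted p = 3.41e-07, edgeR). Dst, the plakin dystonin, fell by 2.54 ± 0.24 (adjusted p = 7.02e-06, edgeR). Desmoplakin (Dsp), the main desmosomal anchor of keratin filaments, lay at 0.01 (adjusted p = 0.94, edgeR).

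Of 10 genes of other intermediate filaments tested, 4 were called higher (Vim, Nefh, Nes and Ina) and none lower in Apc against WT, beside 12.2% and 14.1% of all genes. Apart from Vim these were low, with WT means of at most 0.140 FPKM. Nefh, Nes and Ina passed the filter on low values through their Apc libraries, so their direction was not independent of it. Vim, the vimentin of mesenchymal and migrating cells, had 16.6, 43.9, 100.5 and 253 FPKM in Apc replicates 1, 2, 5 and 6 and 2.17 to 4.81 in WT (log2 fold change 4.89 ± 0.67, adjusted p = 9.78e-05, edgeR). It varied far more among the Apc libraries than any of the 8 keratins tested, while the 6 mesenchyme markers summed to 1.55 to 2.38 CPM there and 0.648 to 1.59 in WT. Pdgfra was called higher, with 54 to 73 counts in Apc and 0 to 4 in WT, and Pdgfrb lower, with 0 to 8 and 18 to 39. Acta2 had 1 to 9 counts in Apc and 0 to 2 in WT, Col1a1 1 to 15 and 0 to 7, and Col1a2 and Col3a1 at most 1 in Apc and 0 in WT. The part of such cells in the rise of Vim was not tested.

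Of 11 epithelial transcription factors tested, 2 were called higher and 2 lower, a rate near the 12.2% and 14.1% of all genes. Grhl3, a factor of stratified barrier epithelia, rose from 0.652 ± 0.290 (SD, n = 5) to 10.5 ± 2.002 FPKM (SD, n = 4), with a log2 fold change of 3.72 ± 0.31 (adjusted p = 2.79e-06, edgeR), and Ehf rose by 1.15 ± 0.17 (adjusted p = 1.42e-04, edgeR). Cdx1, an intestinal homeobox factor, fell by 4.18 ± 0.18 (adjusted p = 3.07e-08, edgeR) and Hnf4a, a factor of enterocyte genes, by 1.27 ± 0.06 (adjusted p = 8.59e-08, edgeR). Cdx2 was at -0.17 (adjusted p = 0.155, edgeR). In P-Rspo3 against WT edgeR called 0 genes of these 4 lists. An unadjusted p under 0.05 was reached by 3 stratified, 2 desmosome and 1 other filament gene and by 1 factor, and DESeq2 called 1 filament gene, Nefm, lower. In Apc against P-Rspo3 the stratified list had 5 higher and 1 lower of 9 tested, and the desmosome list 1 and 2 of 14. The other filaments had 4 and 0 of 10, and the factors 1 and 2 of 11. Over all genes 13.4% were called higher and 13.3% lower. Krt4, Krt5, Anxa8 and Ivl again passed the filter on low values through their Apc libraries. Among the other filament genes Ina, Nefm and Nes did so too, so the directions of these genes were not independent of the filter.

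**Figure D5:**
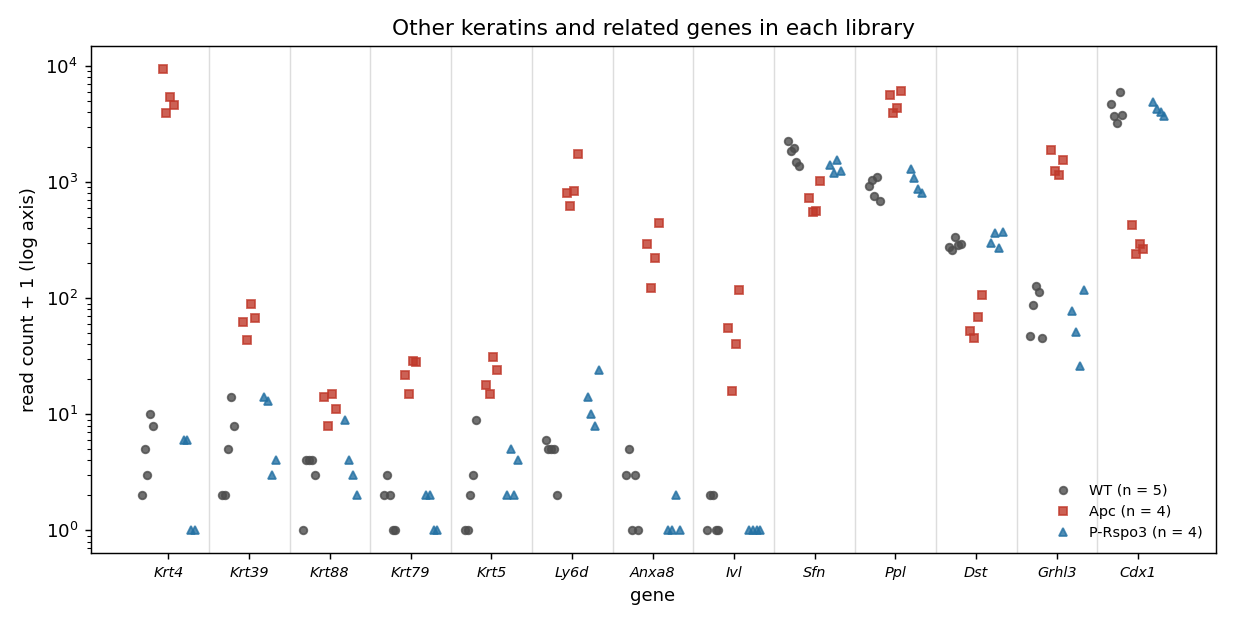
Read count + 1 (log axis) of 13 genes in each of 5 WT, 4 Apc and 4 P-Rspo3 libraries: other keratins, genes of stratified epithelium, the cytolinkers Ppl and Dst, and the factors Grhl3 and Cdx1. Krt4 lies between 3964 and 9430 counts in Apc and at or below 9 in the other libraries, and Dst, Sfn and Cdx1 are lower in Apc.

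For each called member, the 3 genes of most similar pattern were found among 13252 genes, by the root mean square difference over the 13 libraries of log2(CPM + 0.5) centred on the WT mean. For Krt7 these included Ppl (0.129) and Fam216a (0.186), so that the periplakin gene named above was also the closest to Krt7. Krt18 had 1700017B05Rik (0.0936), Aaas (0.0978) and Kcnk1 (0.0988), and Krt23 had Cdk17 (0.230), Spin2c (0.236) and Znrf3 (0.240). Krt80 had Tspan2 (0.253), Ajuba (0.256) and Cryab (0.267). The genes nearest to Krt20 were Slc2a7 (0.503), Ceacam20 (0.509) and Tmem236 (0.561), a looser likeness than for the others. No nearest genes are given for Krt15, whose mean FPKM was under 1 in each group. These values describe 13 libraries in 3 groups and mostly reflect the difference between Apc and the rest.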

How the data were processed

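After FastQC the authors mapped their reads with STAR (GRCm38) and deposited whole-number counts per gene from HTSeq 0.6.0, not normalized, and FPKM from Cufflinks 2.2.1. The annotation release, strand setting and treatment of reads shared by near-identical keratin copies are not given in the sources used here. Groups came from the labels. In 2 of 15 libraries title and genotype conflict, and they entered no group.

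Counts were tested with edgeR 4.0.16 (TMM, glmQLFit, glmQLFTest) in R 4.3.3, with separate fits for each pair of groups, on genes that reached 0.1 FPKM in a number of libraries no lower than the size of the smaller group, and Benjamini-Hochberg adjustment over all genes tested. FPKM values are printed for levels and shares, and a count of 0 allows up to 3 counts. The script was tested on simulated data. Alternatives were DESeq2 1.42.0 and its size factors, limma 3.58.1 on log2 FPKM, other filters, a joint fit, other group assignments and each library left out. None of 22 pairs of libraries of the same group agreed within sampling noise.

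The members and gene lists were chosen with earlier results of these data known. All members are named, and from each list the called genes, at most 6 by absolute log2 fold change, with the cell type markers as sums; 1 gene of the likeness rule is not reported here. Krt13, Trp63, Dsp, Cdx2, Nefm, Lgr5, Ascl2, Smoc2, Olfm4, and the single endothelial and mesenchymal markers were named after their values were seen, as were the sequence motifs. The floor of 3 counts covers counting error only.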

Additional observations from a re-analysis of the deposited data

How the results depend on the processing

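Of 448 recomputed values of single genes, 431 kept their direction and side of the threshold, 11 lost it, 5 gained it and 1 turned. The turn was Krt20 in P-Rspo3 against WT, at 0.0273 without WT replicate 5 (range over the left-out libraries -0.60 to 0.0273), which is a gene that was not called. In Apc against WT, 2 members were called lower. This became 4 with the adjusted p alone, which adds Krt8 and Krt19, and 1 with limma on log2(FPKM + 1) or log2(FPKM + 0.1) and with an FPKM filter of at least 1, where Krt15 was not called or not tested. The same counts, 4, 1, 1 and 1, held in Apc against P-Rspo3, and assigning the conflicting libraries by genotype also gave 1, with Krt15 at -0.97. Leaving out each library gave 2 to 2 lower in Apc against WT and, in Apc against P-Rspo3, 1 to 3 lower, 3 to 4 higher and 4 to 7 in all. In P-Rspo3 against WT no alternative called a member, although without NAIVE the genes called overall went from 1 higher and 0 lower to 166 and 100.

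The line numbers 1, 2, 5 and 6 are shared by WT and Apc libraries, but no label says that they mark a common origin. Same-numbered libraries had correlations of -0.19 to 0.24 between their deviations from the group means (median 0.09), and 2 of 4 WT and 2 of 4 Apc libraries correlated best with their own number. With the number as a replicate block, and WT of the APC flox/flox lines alone, 6 members were called, 4 higher and 2 lower, as without the block, among 1979 genes higher and 2240 lower. Depth limits Krt14, Krt17 and, outside Apc, Krt80.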

Other observations

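In the library titled LIPO the genotype reads dox naive in ENR media, and in that titled NAIVE_F it reads Ptprk-Rspo3 in EN media, so that title and genotype conflict in both. Rspo3 had 0 counts in LIPO and 729 in NAIVE_F. LIPO had FPKM of 489 for Krt8, 170 for Krt18, 656 for Krt19, 39.8 for Krt7, 33.8 for Krt20, 10.2 for Krt23, 1.36 for Krt15 and 0.0767 for Krt80. NAIVE_F had 512 for Krt8, 192 for Krt18, 726 for Krt19, 43.2 for Krt7, 17.9 for Krt20, 11.98 for Krt23, 0.576 for Krt15 and 0.0268 for Krt80. Krt17 had 0 counts in both and Krt14 had 1 in LIPO and 0 in NAIVE_F. The ratio of Krt8 to Krt18 was 2.88 in LIPO and 2.67 in NAIVE_F.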
